A study of Mus musculus with 15 samples.

Results

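The adhesion molecules of the vessel wall and the leukocyte proteins that bind them were followed as 10 genes in mouse heart and liver allografts: Icam1, Icam2, Vcam1, Sele and Selp on the endothelial side, and Selplg, Itgal, Itgb2, Itga4 and Itgb7 on the leukocyte side. The genes were chosen by name, with earlier results of these data known, and all probes of each were found through the transcript accession that the array gives for a probe. The whole series names 32171 genes by symbol or design name. The 10 members had 15 of the 41174 probes, and 6 genes had 1 probe while Vcam1, Selp and Selplg had 2 each and Itga4 had 3. All 15 probes had a value on all 15 arrays, none was removed for a low value, and each of the 10 genes was well above background on all 3 arrays of at least 1 group.

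Tissue RNA was hybridised in a single colour to 15 arrays, 3 for each of 5 groups. Cardiac allografts came from male C57BL/10 (B10, H-2b) donors, were placed vascularised and heterotopic in the abdomen of male CBA (H-2k) recipients, and were taken at day 5. Hepatic allografts came from male B10.BR (BR, H-2k) donors, were placed orthotopically with a cuff technique in male B10.D2 (D2, H-2d) recipients, and were taken at day 5 or day 8. The controls were 3 hearts and 3 livers labelled as normal tissue, which the study's text also calls isografts, and neither their strain nor the age of any animal was given in the sources used here. If the controls were not transplanted, effects of the surgery and of the foreign graft cannot be told apart. No immunosuppressive agent was named for any group. Heart and liver differed in strain combination as well as in organ, so these cannot be told apart. Nothing in the labels says that the 3 samples of a group came from separate animals, so p-values measure the spread between these samples.

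Leukocytes leave the blood in steps. Selectins on activated endothelium and platelets hold passing cells through sugars carried by proteins such as PSGL-1, the product of Selplg, and integrins on the leukocyte then bind immunoglobulin-like ligands on the vessel wall. The αL chain (Itgal) pairs with β2 (Itgb2) as LFA-1, which binds ICAM-1 and ICAM-2. The α4 chain (Itga4) pairs with β1 as VLA-4, which binds VCAM-1, or with β7 (Itgb7) as the receptor of the gut addressin MAdCAM-1. ICAM-1, VCAM-1 and E-selectin are known as genes that inflammatory cytokines induce in endothelium, and blocking these contacts has long been studied in transplantation.

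Windows around an annotated start, from 250 bases before to 50 bases after it, were given by RefSeq (GRCm38.p6) for 5 of the 10 members: Icam1, Sele, Selp, Itga4 and Itgb7. The Sele window lies inside the annotated gene, which begins at base 164039614, and the Itgb7 window also lies inside its gene. Positions in these windows therefore count from an internal start. The windows of the 3 endothelial genes are shown because the arrays separated them in the heart, where Icam1 was called higher in allografts and Sele and Selp were not called. They lie at chr9:21015690-21015989 (Icam1), chr1:164047984-164048283 (Sele) and chr1:164115014-164115313 (Selp), all on the plus strand, and are written 5′ to 3′ with motif matches in capitals.
Icam1: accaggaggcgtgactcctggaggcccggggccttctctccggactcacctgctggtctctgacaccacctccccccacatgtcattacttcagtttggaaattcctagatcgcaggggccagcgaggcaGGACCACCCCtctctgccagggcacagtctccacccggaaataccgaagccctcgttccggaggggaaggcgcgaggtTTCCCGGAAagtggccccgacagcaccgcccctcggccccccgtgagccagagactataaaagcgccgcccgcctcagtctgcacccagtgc
Sele: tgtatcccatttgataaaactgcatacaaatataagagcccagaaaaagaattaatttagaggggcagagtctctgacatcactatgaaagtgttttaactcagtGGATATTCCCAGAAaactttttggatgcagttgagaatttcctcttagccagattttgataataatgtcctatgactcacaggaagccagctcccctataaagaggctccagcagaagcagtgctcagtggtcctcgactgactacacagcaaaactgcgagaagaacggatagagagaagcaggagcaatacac
Selp: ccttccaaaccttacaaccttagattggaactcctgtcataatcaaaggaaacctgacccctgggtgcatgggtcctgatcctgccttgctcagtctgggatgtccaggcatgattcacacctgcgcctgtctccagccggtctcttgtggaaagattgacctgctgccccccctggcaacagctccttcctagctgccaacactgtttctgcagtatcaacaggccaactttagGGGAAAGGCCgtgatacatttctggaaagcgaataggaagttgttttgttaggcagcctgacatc
Both strands were searched for a broad kappa B-like motif (GGG and CC with any 5 bases between), for a narrower form of it (GGG and TTCC with any 3 bases between), and for TTCNNNGAA, like an interferon-activated site. A TTCNNNGAA match stood 42 to 34 bases before the start of Icam1 and 140 to 132 bases before the internal start of Sele. In Sele it overlapped a broad kappa B-like match at bases 145 to 136 that reads on the other strand, so the capitals there form a single run. The other capitals are broad kappa B-like matches, 120 to 111 bases before the start of Icam1 on the other strand and 15 to 6 bases before that of Selp, and Itgb7 held a further match. The narrower form was in none of the 5 windows. Of all 32851 RefSeq windows of this length, 50.8% held the broad motif, 5.56% the narrow one and 8.30% TTCNNNGAA, and a match is a description of letters and not of a bound site.

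The arrays differed in brightness, and the 75th percentile of the deposited signal was 92.1 to 226 in hepatic controls, 338 to 478 in hepatic allografts, 394 to 710.5 in cardiac allografts and 1021 to 1247 in cardiac controls. Values below are log2 signals after quantile normalisation, so a difference of 1 is a doubling, and a probe counts as well above background on an array where that flag of the scanner software was set for a share of 0.5 or more of its spots. The number of arrays limits the precision. The 3 cardiac controls sat on a slide of their own and the 3 cardiac allografts on another, and in the heart the effects of slide and graft cannot be told apart. The slide of the cardiac allografts also held day 5 hepatic allograft 3, which was scanned on their day, while all other liver arrays shared another scan day and the cardiac controls a further one. Hepatic controls 1 and 2 shared a slide with day 8 allografts 1 and 2, and no control shared a slide with a day 5 hepatic allograft. The tissue labels held: 5 of 5 cardiomyocyte markers were higher in control heart than in control liver, and Alb, Apoa1 and Ttr were well above background on every liver array and on no heart array.

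In cardiac allografts 7 of the 10 members were higher than in controls and none was lower, by limma with Benjamini-Hochberg adjustment over 41003 probes at 0.05. Of all probes 13.3% were called higher in that comparison and 15.3% lower. In hepatic allografts 7 of 10 were higher at day 5, where 8.12% of all probes were called higher, and 8 of 10 at day 8, where 7.02% were. No member was lower at either time, against 7.02% and 4.65% of all probes. In these comparisons 7, 7 and 8 members had every allograft array above every control array, as 29%, 12.4% and 12.9% of all probes did. The median log2 difference of the members was 1.68 in the heart and 1.77 and 1.89 in the liver at day 5 and day 8, beside 0.016, -0.071 and -0.082 over all probes; the liver medians include Sele, which was not measurable there. All 5 leukocyte-side members were higher in all 3 comparisons, Vcam1 was too, Icam1 and Icam2 were higher in some, and neither selectin of the endothelium was called in any. The 2 hepatic comparisons share their 3 control arrays. In RNA of whole tissue, more cells of a type and more RNA per cell cannot be told apart.

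**Figure D1:**
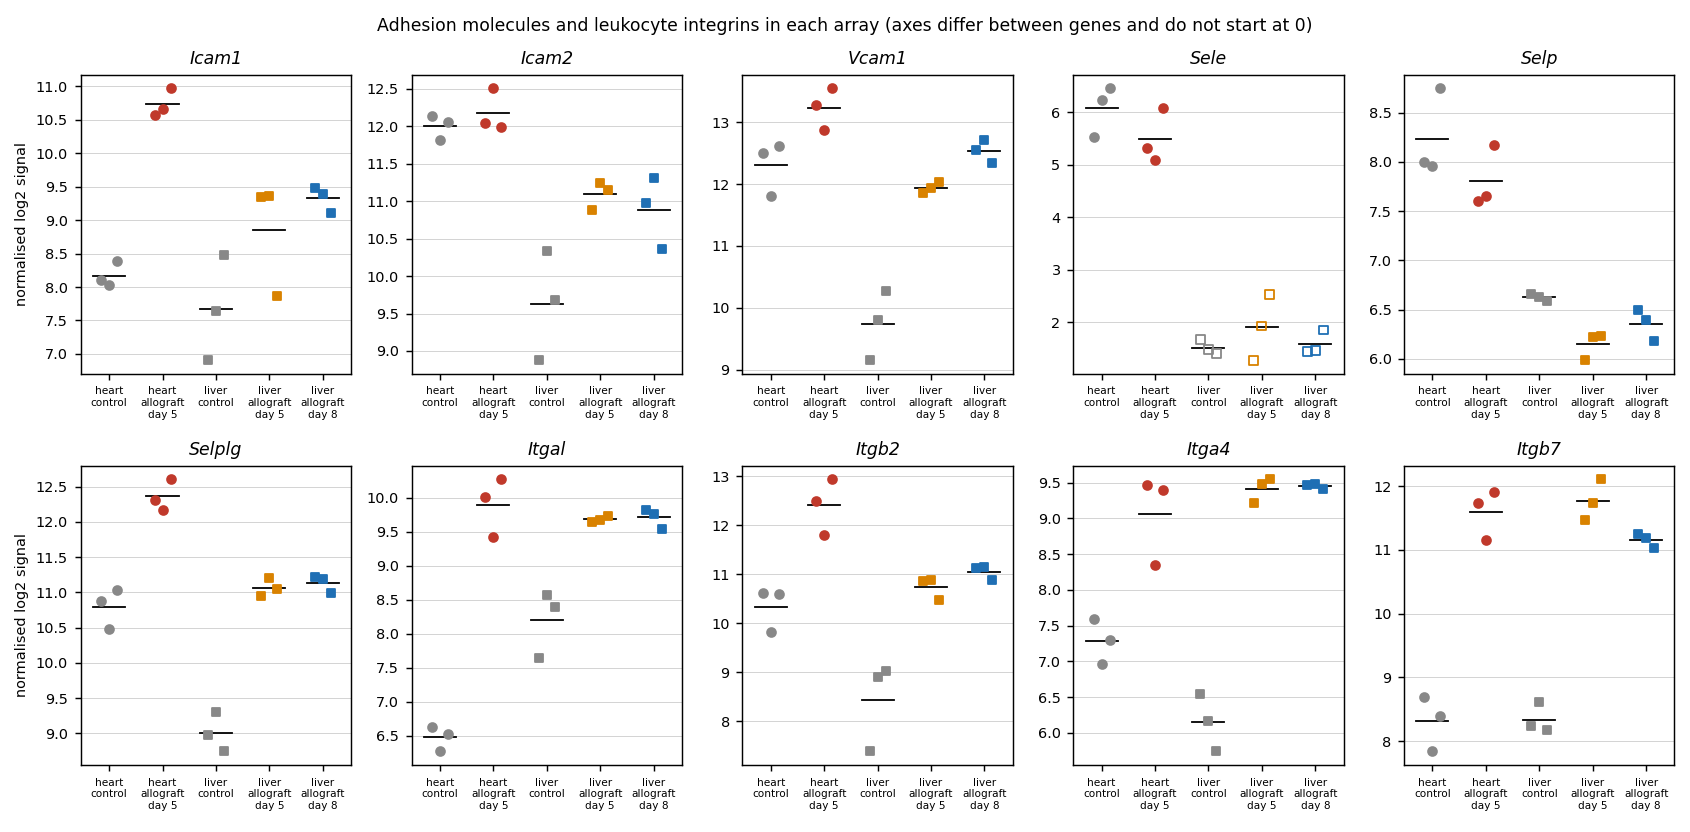
Normalised log2 signal (vertical axis, a separate scale for each gene) of the brightest probe of each of the 10 genes on all 15 arrays, by group; circles are hearts, squares livers, grey controls, open symbols arrays on which the probe was not well above background, and black lines group means. Every allograft of Selplg, Itgal, Itgb2, Itga4 and Itgb7 lies above every control of its organ, and Sele has open symbols on all liver arrays.

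Icam1 encodes the cytokine-inducible ligand of β2 integrins. Its log2 signal was 8.10, 8.02 and 8.39 in the cardiac controls and 10.57, 10.67 and 10.97 in the cardiac allografts. The allografts stood well apart from the controls, by 5.92-fold (log2 difference 2.57 ± 0.42 SE, limma adjusted p = 0.000774). In hepatic controls it was 6.91, 7.64 and 8.48, in day 5 allografts 9.35, 9.36 and 7.87, and in day 8 allografts 9.48, 9.39 and 9.11. The third day 5 allograft, the one on the slide of the cardiac allografts, lay among the controls, whereas all day 8 allografts lay above them. The day 8 difference was 1.65 ± 0.42 (3.14-fold, adjusted p = 0.0248), and the day 5 difference of 1.18 ± 0.42 did not pass (adjusted p = 0.0768). Icam1 at day 5 did pass without hepatic control 3 (1.58) and without day 5 allograft 3 (1.67), which is the value within a single scan day. The day 8 call was lost without hepatic control 1 (1.26), hepatic control 2 (1.62), day 8 allograft 1 (1.57) or day 8 allograft 2 (1.61).

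Icam2 encodes a ligand of LFA-1 that resting endothelium carries. In the heart it was 12.14, 11.82 and 12.06 in controls and 12.05, 12.51 and 11.99 in allografts. These groups overlapped, with a difference of 0.18 (95% confidence interval -0.55 to 0.90, adjusted p = 0.764). In the liver it was 8.88, 10.34 and 9.68 in controls, 10.88, 11.24 and 11.15 at day 5, and 10.98, 11.32 and 10.37 at day 8. All hepatic allografts exceeded all hepatic controls, though the lowest day 8 allograft did so barely. Icam2 rose 2.75-fold at day 5 (log2 difference 1.46 ± 0.33, adjusted p = 0.0122) and 2.38-fold at day 8 (1.25 ± 0.33, adjusted p = 0.0301). The day 8 call was lost without hepatic control 1 (0.87), day 8 allograft 1 (1.21) or day 8 allograft 2 (1.04).

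Vcam1 encodes the endothelial ligand of VLA-4. Its brighter probe gave 12.50, 11.80 and 12.61 in cardiac controls and 13.28, 12.87 and 13.55 in cardiac allografts. The heart groups did not overlap, but they were close. In the liver the probe gave 9.15, 9.80 and 10.27 in controls, 11.85, 11.93 and 12.04 at day 5, and 12.55, 12.71 and 12.34 at day 8. Here the allografts lay far above the controls, and every day 8 graft lay above every day 5 graft. Vcam1 was 1.91-fold higher in cardiac allografts (0.93 ± 0.29, adjusted p = 0.0290), 4.61-fold higher in day 5 hepatic allografts (2.20 ± 0.29, adjusted p = 0.000399) and 6.96-fold higher at day 8 (2.80 ± 0.29, adjusted p = 8.08e-05). The heart call was lost without cardiac control 2 (0.68), cardiac allograft 1 (0.91) or cardiac allograft 3 (0.78), with slide as a random block (0.91, adjusted p = 0.133), and on the second probe, which gave 1.66 ± 0.70 (adjusted p = 0.0983). In the liver the second probe gave 3.70 at day 5 and 3.89 at day 8, both called, and hepatic control 1, which was not well above background on it, moved these values: without it they were 2.59 and 2.78, both still called (adjusted p = 0.000255 and 0.000183).

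Sele and Selp encode E-selectin and P-selectin, the selectins of activated endothelium, the latter also stored in platelets. Sele was 5.54, 6.24 and 6.46 in cardiac controls and 5.32, 5.09 and 6.08 in cardiac allografts. The groups overlapped, and the difference of -0.58 (95% confidence interval -1.32 to 0.16) was not called (adjusted p = 0.230). On all 9 liver arrays Sele was not well above background, so no change can be given there. Selp on its brighter probe was 8.0, 7.96 and 8.75 in cardiac controls and 7.61, 7.65 and 8.17 in cardiac allografts. These overlapped too, with a difference of -0.43 (interval -0.90 to 0.04, adjusted p = 0.164). In the liver Selp was 6.66, 6.63 and 6.59 in controls, 5.99, 6.22 and 6.23 at day 5, and 6.50, 6.4 and 6.18 at day 8. All hepatic allografts lay slightly below all controls, as 18.8% of all probes did at day 5 and 18.6% at day 8. The differences of -0.48 (adjusted p = 0.156) and -0.27 (adjusted p = 0.453) were not called. The second Selp probe was well above background on only 1 hepatic control (5.46), which lay above every hepatic allograft (4.33 to 5.16), and no direction is read from it.

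Selplg encodes the selectin ligand of leukocytes. It was 10.87, 10.48 and 11.03 in cardiac controls and 12.31, 12.17 and 12.60 in cardiac allografts. In the liver it was 8.98, 9.30 and 8.74 in controls, 10.95, 11.20 and 11.05 at day 5, and 11.21, 11.19 and 10.98 at day 8. Allografts stood clear of controls in both organs. The rise was 2.96-fold in the heart (1.57 ± 0.19, adjusted p = 8.37e-05), 4.17-fold in the liver at day 5 (2.06 ± 0.19, adjusted p = 2.78e-05) and 4.35-fold at day 8 (2.12 ± 0.19, adjusted p = 2.50e-05). The second probe was called higher in all 3 comparisons as well (1.35, 2.41 and 2.48).

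Itgal, the αL chain of LFA-1, was 6.62, 6.27 and 6.53 in cardiac controls and 10.01, 9.42 and 10.27 in cardiac allografts. This was a rise of 10.7-fold (3.42 ± 0.25, adjusted p = 2.31e-06), and the groups were far apart. In the liver Itgal was 7.64, 8.57 and 8.39 in controls, 9.64, 9.67 and 9.73 at day 5, and 9.82, 9.76 and 9.54 at day 8. The hepatic allografts were tightly grouped above the controls, by 2.79-fold at day 5 (1.48 ± 0.25, adjusted p = 0.00217) and 2.84-fold at day 8 (1.51 ± 0.25, adjusted p = 0.00232).

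Itgb2, the β2 chain that Itgal shares with the myeloid α chains, was 10.62, 9.81 and 10.59 in cardiac controls and 12.50, 11.79 and 12.94 in cardiac allografts. In the liver it was 7.39, 8.91 and 9.02 in controls, 10.87, 10.88 and 10.47 at day 5, and 11.12, 11.14 and 10.89 at day 8. No allograft overlapped the controls of its organ, and hepatic control 1 lay far below the other two. Itgb2 rose 4.20-fold in the heart (2.07 ± 0.41, adjusted p = 0.00278), 4.93-fold in the liver at day 5 (2.30 ± 0.41, adjusted p = 0.00311) and 6.12-fold at day 8 (2.61 ± 0.41, adjusted p = 0.00169).

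Itga4, the α4 chain of VLA-4, was 7.59, 6.96 and 7.29 in cardiac controls and 9.46, 8.35 and 9.39 in cardiac allografts on its brightest probe. In the liver it was 6.55, 6.17 and 5.74 in controls, 9.22, 9.48 and 9.54 at day 5, and 9.47, 9.49 and 9.41 at day 8. Allografts exceeded controls in both organs, and the second cardiac allograft was the lowest of the 9. The rise was 3.44-fold in the heart (1.78 ± 0.29, adjusted p = 0.000782), 9.61-fold in the liver at day 5 (3.26 ± 0.29, adjusted p = 2.54e-05) and 9.88-fold at day 8 (3.30 ± 0.29, adjusted p = 2.59e-05). The 2 dimmer probes were called higher in all 3 comparisons. Neither was well above background on any hepatic control, and there the rises were at least 6.22-fold and at least 2.36-fold at day 5, and at least 3.82-fold and at least 1.40-fold at day 8, counting the controls at the lowest signal that the software marked as well above background.

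Itgb7, the β7 chain, was 8.70, 7.84 and 8.40 in cardiac controls and 11.73, 11.15 and 11.90 in cardiac allografts. In the liver it was 8.23, 8.62 and 8.17 in controls, 11.46, 11.73 and 12.10 at day 5, and 11.25, 11.19 and 11.02 at day 8. The allografts of both organs lay far above both sets of controls. Itgb7 rose 9.72-fold in the heart (3.28 ± 0.26, adjusted p = 3.83e-06), 10.7-fold in the liver at day 5 (3.42 ± 0.26, adjusted p = 7.20e-06) and 7.02-fold at day 8 (2.81 ± 0.26, adjusted p = 3.52e-05). For a single gene of 3 arrays against 3, an exact two-sided permutation test cannot go below p = 0.1, which every member called in these comparisons reached.

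**Figure D2:**
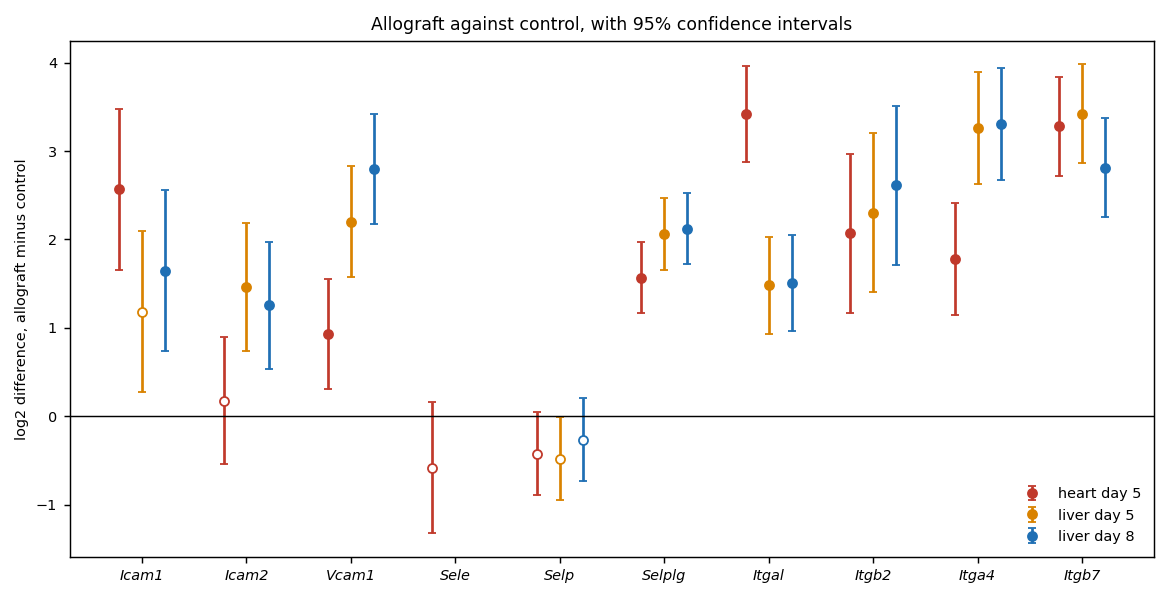
Log2 difference of allograft minus control (vertical axis) for each gene's brightest probe with its 95% confidence interval, in the heart at day 5 (red) and the liver at day 5 (orange) and day 8 (blue); filled points passed an adjusted p of 0.05 and open points did not, and Sele has no liver points because it was not well above background there. The leukocyte-side genes lie between 1.48 and 3.42 in all 3 comparisons, and the Sele and Selp points lie below 0.

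Hepatic controls 1 and 2 shared a slide with day 8 allografts 1 and 2. For the 8 members called at day 8 every day 8 allograft lay above every hepatic control, so their direction there was fixed in advance. Their within-slide log2 differences ran from 1.54 for Icam2 and 1.69 for Itgal through 2.06 (Selplg), 2.16 (Icam1), 2.79 (Itgb7), 2.98 (Itgb2) and 3.12 (Itga4) to 3.16 for Vcam1. All 8 were called with slide as a fixed block in the fit of 15 arrays. That fit called 3586 of all probes higher and 2977 lower, beside 2880 and 1907 without the block. A limma fit on those 4 arrays alone called none of the 41003 probes, the members included, with 9222 at an unadjusted p under 0.05. For day 5 no within-slide value could be had in the liver, and with slide as a random block all 7 day 5 calls remained. With that block 2321 of all probes were called higher and 1263 lower at day 5, beside 3329 and 2878 without it.

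Between day 5 and day 8 none of the 10 members was called by limma, where 0.0293% of all probes were called in either direction and 3807 had an unadjusted p under 0.05. The largest differences were those of Itgb7, lower at day 8 by 0.61 on the log2 scale (-0.61 ± 0.26, adjusted p = 0.496), and Vcam1, 0.60 ± 0.29 (adjusted p = 0.560). Their day 5 and day 8 arrays did not overlap. Nor did those of Itgb2 (0.31 ± 0.41, adjusted p = 0.862), against 9.27% of all probes that did not overlap and were higher at day 8 and 10.4% that were lower. Itgal, Itga4 and Selplg differed by 0.03, 0.04 and 0.06, with confidence intervals of -0.52 to 0.57, -0.59 to 0.68 and -0.34 to 0.47.

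The day 5 rise differed between the organs for 3 members in the interaction contrast of the fit. Itgal rose more in the heart, by 1.94 ± 0.35 on the log2 scale (adjusted p = 0.00411; 8.49% of all probes were called in that direction). Itga4 and Vcam1 rose more in the liver, by -1.48 ± 0.41 (adjusted p = 0.0287) and -1.27 ± 0.41 (adjusted p = 0.0487), as 9.54% of all probes did. Itgal stood apart from the other two: it was called whichever array was left out. The Vcam1 call was lost without cardiac control 1 (-1.18) or 3 (-1.12), cardiac allograft 1 (-1.30) or 2 (-1.09), hepatic control 1 (-0.97) or 2 (-1.29) and any day 5 hepatic allograft (-1.32, -1.28 and -1.22). The Itga4 call was lost without cardiac control 1 (-1.32) or 3 (-1.47) and without day 5 hepatic allograft 2 (-1.45) or 3 (-1.41). Both kept their direction throughout. With slide as a random block Itgal alone was called (1.91, adjusted p = 0.0170), with Itga4 at -1.55 (adjusted p = 0.0618) and Vcam1 at -1.30 (adjusted p = 0.101). In the main fit the second Vcam1 probe gave -2.05 and was not called (adjusted p = 0.170). The dimmer Itga4 probes, well above background on no hepatic control, gave -2.71 (adjusted p = 0.0117, called) and -1.61 (adjusted p = 0.124, not called).

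The interaction passed for none of the other members, and Sele had no liver value to compare. Icam1 and Icam2, at 1.38 (interval 0.10 to 2.67, adjusted p = 0.125) and -1.28 (interval -2.30 to -0.26, adjusted p = 0.0789), did not pass, but Icam1 did without hepatic control 1 (1.76) and Icam2 without hepatic control 2 (-1.62). The remaining intervals include 0. For Itgb7 and Itgb2 the differences were -0.14 (interval -0.93 to 0.65) and -0.23 (interval -1.51 to 1.04). The intervals were narrower for Selplg, at -0.49 (interval -1.06 to 0.08), and Selp, at 0.05 (interval -0.61 to 0.72).

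**Figure D3:**
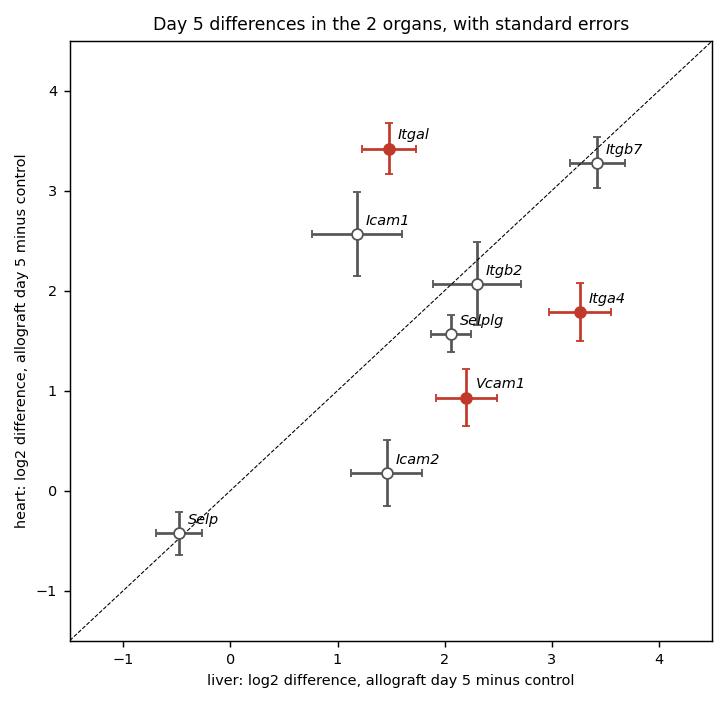
Log2 difference of day 5 allograft minus control in the heart (vertical axis) against that in the liver (horizontal axis) for the 9 genes measurable in both, with standard errors; the dashed line marks equal differences, and filled red points are the genes called in the interaction contrast. Itgal lies above the line at 3.42 against 1.48, and Itga4 and Vcam1 lie below it.

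Levels also differed between the controls of the organs. Cardiac and hepatic controls shared no slide and no scan day, and their strain was not given. Organ, strain, slide and scan day cannot be told apart in this comparison. In control heart 7 of 10 members were higher than in control liver (27.6% of all probes were) and 1 was lower (26.4% were). Itgal was the lower one, at -1.73 ± 0.25 (adjusted p = 8.86e-05), yet in allografts its cardiac and hepatic levels overlapped. Vcam1 (2.57 ± 0.29), Icam2 (2.37 ± 0.33), Itgb2 (1.90 ± 0.41), Selplg (1.79 ± 0.19), Selp (1.61 ± 0.22) and Itga4 (1.13 ± 0.29) were higher in the heart, with adjusted p from 5.23e-06 to 0.00565. Sele was at least 3.28-fold higher in control heart on quantile-normalised signals, counting hepatic controls at the lowest signal marked as well above background. Itgb7 (-0.03, interval -0.59 to 0.53) and Icam1 (0.49, interval -0.42 to 1.40) were not called. Markers of carrier cells differed between the controls too. In control heart 9 of 12 endothelial, 3 of 4 platelet and 2 of 3 neutrophil markers were higher and none lower. Of 5 pan-leukocyte and T cell markers 3 were higher and 2 lower, and of 3 B cell markers 2 were lower. The part of cell numbers in these levels was not tested. For Itgb7, Itga4 and Itgal every allograft array of either organ lay above every control array of both organs. The share of all probes with that order was not counted, so it is given as a description only. Itgb7 was highest in day 5 hepatic allografts, then cardiac, then day 8 hepatic ones, each overlapping the next. For Itga4 the hepatic allografts of both days overlapped, as did day 5 hepatic with cardiac allografts. Vcam1 in control heart overlapped hepatic allografts of both days, Icam2 in control heart lay above every hepatic group, and Selplg and Itgb2 in control heart overlapped day 5 hepatic allografts.

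Other genes of the adhesion cascade were counted in fixed lists. Of 11 other integrin chains with a probe, 3 were higher in the heart and 3 in the liver at each time. Itgax, the αX chain of dendritic cells and macrophages, rose by 2.13 in the heart and by 3.47 and 3.98 in the liver, and Itgam, the αM chain of myeloid cells, rose by 2.73 in the liver at day 5. Itgae, the αE chain that pairs with β7, was 1.73 (called), 0.77 (not called) and 2.22 (called), and Itgb1, the β1 partner of α4, was called in none of the 3, at -0.67, 0.65 and 0.47. Of 14 genes of integrin activation 7 were higher and 1 lower in the heart, and 10 and 8 were higher in the liver at day 5 and day 8. The largest rises among them were those of the T cell adaptor Skap1 (3.72, 4.34 and 3.37) followed by Fermt3 in the heart (2.34), Rac2 in the liver at day 5 (2.56) and Dock2 there at day 8 (2.61). Fermt3 encodes the integrin activator kindlin-3, and Rac2 and its activator Dock2 drive leukocyte movement. The one that fell in the heart was Rasgrp2 (-0.83), an activator of Rap1.

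Of 9 other selectins and selectin ligands 3 were higher and 1 lower in the heart. Spn, which encodes the leukocyte sialoglycoprotein CD43, rose by 3.36 there and by 4.68 and 3.52 in the liver. Cd34 fell in the heart (-1.18). The one called lower in the liver, where 3 were higher at day 5 and 4 at day 8, was Glycam1, which was not well above background on any liver array and so has no fold. Of 9 genes that build selectin ligands 3 were higher and 1 lower in the heart, 4 were higher at day 5 in the liver, and 4 were higher and 1 lower at day 8. Fut7, the fucosyltransferase of leukocytes, rose by 2.98, 1.79 and 1.78, whereas Gcnt1, a branching glycosyltransferase, was -1.51 in the heart and 2.22 and 2.49 in the liver, all called. Tpst1 (0.81) was the next in the heart and Chst2 (1.94) in the liver at day 5, both of which add sulfate. Fut4 was well above background on no hepatic control and rose at least 2.52-fold by day 8, when Chst4 was lower (-0.99).

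Of 14 cytokine inputs 9 were higher and 1 lower in the heart, and 7 were higher in the liver at each time. Ifng rose by 10.55, 5.79 and 6.19, and in the heart Lta rose by 5.09 while Il1r1 fell (-1.34). In the liver at day 8 the next largest rise was that of Tnf (3.22). Ifng encodes interferon gamma, and Tnf and Lta cytokines that act on endothelium. Among the genes named here Ifng, Tnf, Gcnt1, Itgam, Dock2 and Pecam1 were well above background on 2 of the 3 hepatic controls and Chst2 on 1. Of 11 junction and transmigration genes none was higher and 3 were lower in the heart, Aoc3 (-3.07), which encodes the adhesion protein VAP-1, and Cdh5 (-1.76), which encodes VE-cadherin, most. In the liver 1 was higher and 1 lower at each time, Jam2 (1.43) at day 5 and Pecam1 (1.68) at day 8 against Icam4, a red cell ligand of integrins that was well above background on no day 5 allograft.

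Markers of the cells that carry these molecules moved as well. In cardiac allografts 7 of 12 endothelial markers were lower and none higher (median -1.39), among them Vwf (-2.15), Tek (-2.08) and Emcn (-2.04), and their summed signal was 32584 to 42572 in controls and 16990 to 20432 in allografts. In these same grafts Icam1 and Vcam1 were called higher, Vcam1 not on its second probe or with slide as a random block. Sele and Selp were not called there, and which cells carried these transcripts was not tested. In the liver the sums overlapped, at 10860 to 13969 in controls, 12631 to 16859 at day 5 and 13703 to 16643 at day 8, with 1 of 12 lower (Vwf, -1.27) and 0 higher at day 5, and 3 of 12 higher and 0 lower at day 8. Of 4 platelet markers 3 were lower in cardiac allografts, Pf4 by most (-3.56), and their sum was 18289 to 20847 in controls and 1070 to 3580 in allografts, beside the uncalled Selp. In the liver that sum stayed between 494 and 958 on all arrays. None of the 4 was called at day 5, and at day 8 Gp1ba, well above background on no hepatic control, was called higher, by at least 1.12-fold (adjusted p = 0.0304).

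Pan-leukocyte and T cell markers were higher in 5 of 5 cases in the heart and 3 of 5 in the liver at each time. Cd8a, which marks cytotoxic T cells, was higher by 6.02 in the heart and was well above background on no hepatic control, so that its rise was at least 102-fold at day 5 and 103-fold at day 8. The summed signal of these 5 genes was 2569 to 3325 in cardiac controls, 6859 to 17908 in cardiac allografts, 535 to 914 in hepatic controls, 6200 to 9079 at day 5 and 6338 to 7087 at day 8. Among the others measured, 1 of 3 B cell markers was higher in the heart, and 1 of 3 neutrophil markers (S100a8) and 1 of 3 macrophage markers (Clec4f, well above background on 1 heart array) were lower; 2 of 3 macrophage markers were higher in the liver at day 8. Of 4 sinusoidal endothelial markers 1 was higher and 2 lower in the heart, and 1 was higher in the liver at each time. The part that numbers of leukocytes, endothelial cells or platelets had in the differences of the 10 members was not tested.

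**Figure D4:**
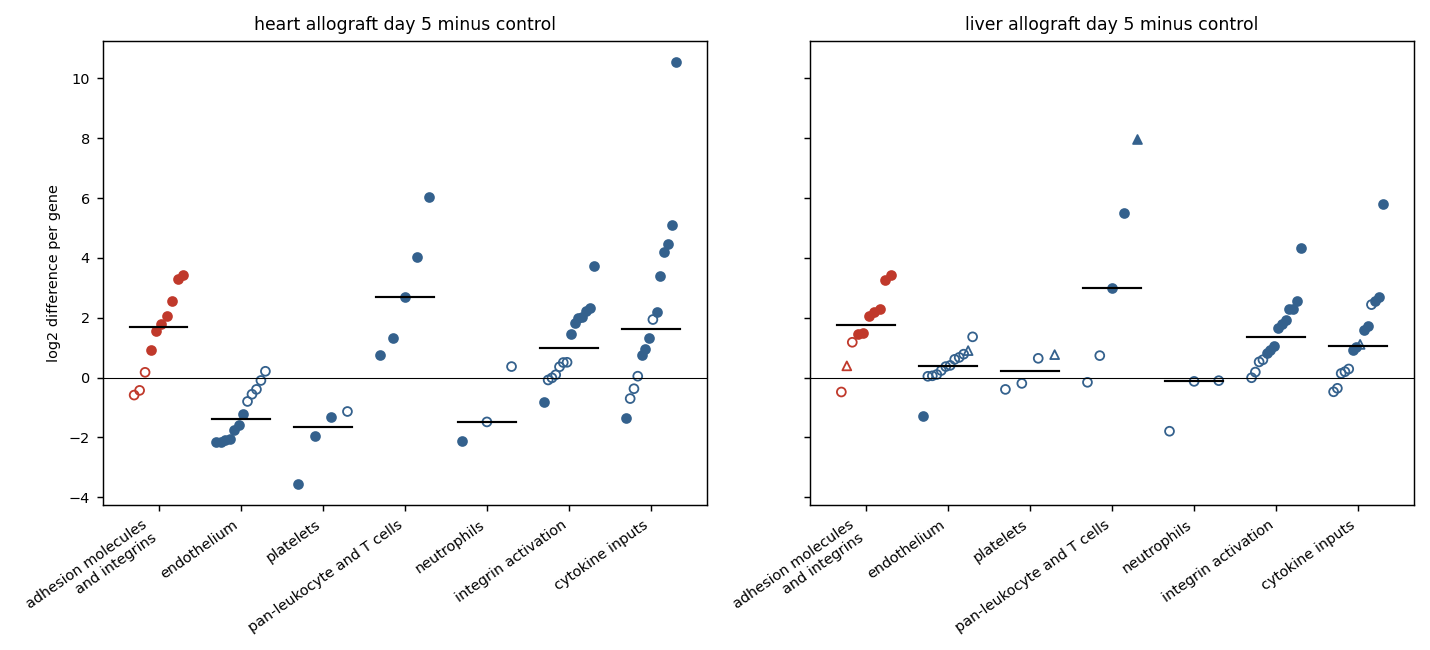
Log2 difference of each gene (points; vertical axis) of the 10 adhesion genes (red) and of the named marker and pathway lists (blue) in day 5 cardiac allografts (left) and day 5 hepatic allografts (right) against controls; filled symbols passed an adjusted p of 0.05, triangles are genes not well above background on any array of a group, whose size is not measured, and black lines are list medians. In the heart the endothelial and platelet medians, -1.39 and -1.64, lie below 0 while the adhesion genes' median is 1.68.

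The genes with the most similar profile were found by Pearson correlation of log2 signal over the 15 arrays, which share 5 group levels, among 21877 named probes. For Itgb7 they were Skap1 (r = 0.988), Nkg7 (0.987) and Lck (0.987), and for Itgal H2-K2 (0.989), Gbp2b (0.988) and Gbp8 (0.982). For Itgb2 they included Atp1b3 (0.985) and Il2rg (0.982), for Selplg they were Slc38a1, Ubash3b and Cd52 (0.986 to 0.977), and for Itga4 Tex14, Cd8a and Cd74 (0.971 to 0.962). These coefficients are descriptions and carry no test. On the endothelial side Vcam1 was most like Vdr, Slc2a3 and Gpr65 (0.981 to 0.976), Icam1 like Pnp, Cfl1 and Trim34a (0.967 to 0.966), and Icam2 like Dubr, Csrp1 and Lxn (0.977 to 0.973). Sele followed Txlnb, Nexn and Sav1 (0.986) and Selp Adamts8, Hdgfl3 and 4930523C07Rik (0.970 to 0.963). The Sele probe was not well above background on any liver array. Its coefficients therefore rest largely on heart arrays against liver arrays without a measured signal.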

How the data were processed

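Total RNA of frozen tissue was labelled with Cy3 and hybridised to Agilent mouse arrays. The authors deposited scanner output per array, with processed signal intensity (background-subtracted by Feature Extraction 10.5.1.1, per the file headers) and spot flags, not normalised between arrays. Here spots marked as outliers were removed, log2 signals of a probe's spots were averaged and quantile-normalised over 15 arrays, a normalisation that the study's methods also name, there with natural logs, and 5 group means were fitted in limma 3.58.1 (R 4.3.3) with Benjamini-Hochberg adjustment over 41003 probes. Of 41174 probes, 64.8% were named through RefSeq transcripts; other design names are old. The probe with the highest mean stood for a gene. From each pathway list the text names Itgb1, Itgae and the 2 called genes that rose and fell most, and for each member the 3 genes most correlated with it; a few genes that this rule names are not reported here. Members, lists and tests were chosen with earlier results of these data known. Replicate correlations were 0.956 to 0.994, so no array was a copy. Alternatives were 75th percentile scaling, normexp correction, normalisation within a comparison, a background filter, other probes, Bonferroni adjustment, the methods' t-test and standardized fold change, slide and replicate blocks, and leaving out each array; the fixed slide block and the fit within a slide were added after seeing the data. The normexp correction (offset 50) used median spot signals.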

Additional observations from a re-analysis of the deposited data

Results flagged for a closer look

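The day 5 response differed between heart and liver, in the test of that difference itself, for 3 members. Of the 10 members 1 was called higher and 2 lower, beside 8.49% and 9.54% of all probes. With so few members the count is not read as a trait of the set. The heart minus liver log2 difference was 1.94 for Itgal, -1.48 for Itga4 and -1.27 for Vcam1. Of these, Itgal stayed called with slide as a random block and with each array left out, whereas Itga4 and Vcam1 lost the call with the slide block (adjusted p = 0.0618 and 0.101) and without several single arrays, and Vcam1 also with the replicate number as a block (adjusted p = 0.0514). The second Vcam1 probe was not called (-2.05, adjusted p = 0.170), and the dimmer Itga4 probes gave -2.71 (adjusted p = 0.0117, called) and -1.61 (adjusted p = 0.124, not called). Organ, strain combination and slide cannot be told apart in these values. No group held enough arrays for a search for outlying arrays.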

How the results depend on the processing

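The members called numbered 6 to 7 in the heart with each array left out, 7 to 8 in the liver at day 5, 6 to 8 at day 8, 0 to 0 between the days, 1 to 3 in the organ difference and 8 to 8 between controls. Of all 41003 probes 4133 to 5915 were then called higher and 4871 to 5820 lower in the heart. At day 5 these were 2432 to 4213 and 1382 to 4821, and at day 8 1902 to 3629 and 720 to 3651. Between the days they were 8 to 46 and 1 to 84. For the organ difference they were 2117 to 4726 and 2630 to 4420, and between controls 10194 to 11112 and 9019 to 11154. Under Bonferroni adjustment the counts fell to 2 in the heart, 3 and 4 in the liver, 0 for the organ difference and 2 between controls. Of all 41003 probes 514 were then called higher and 428 lower in the heart. In the liver these were 360 and 19 at day 5 and 317 and 9 at day 8. For the organ difference they were 75 and 108, and between controls 2767 and 2466. The study's standardized fold change with Bonferroni adjustment called 0 members in the heart, 2 at day 5 and 4 at day 8, and the methods' t-test after Benjamini-Hochberg adjustment called 2 and 3 in the liver. Over all probes standardized fold change called 138 higher and 103 lower in the heart, 322 and 23 at day 5, and 333 and 23 at day 8. The t-test called 177 and 54 at day 5 and 615 and 209 at day 8. Normalising and fitting within a comparison left 4 at day 5, 6 at day 8, where Icam1 (1.68, adjusted p = 0.0929) and Icam2 (1.30, adjusted p = 0.187) lost their calls, and 1 for the organ difference, as did slide as a random block for the latter (1). Within a comparison 1097 of all probes were called higher and 410 lower at day 5, and 1535 and 701 at day 8. For the organ difference these were 2618 and 2989, and 2194 and 2591 with the random block. Within the shared slide 0 were called at day 8, in a fit of 4 arrays. The same-numbered arrays of different groups did not deviate together (r from -0.123 to 0.161 over 30 pairs, 1 pair over 0.1), and with the replicate number as a block the counts were 7, 7, 8, 0, 2 and 8, Vcam1 losing its organ difference (adjusted p = 0.0514). With that block 5389 of all probes were called higher and 6048 lower in the heart. In the liver these were 3150 and 2630 at day 5, 2678 and 1612 at day 8, and 10 and 2 between the days. For the organ difference they were 3146 and 3596, and between controls 11186 and 10727.

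Under 75th percentile scaling the median of all probes moved to 0.466 in the heart and -0.370 and -0.455 in the liver, and to 0.635 for the organ difference and -0.755 between controls. The calls over all probes moved from 5433 higher and 6288 lower to 15223 and 5448 in the heart, from 3329 and 2878 to 3010 and 6333 at day 5, and from 2880 and 1907 to 2879 and 11012 at day 8, while the members called were as many as before. Normexp correction, which lifts dim signals, gave 1.18 for Sele and -1.13 for Itgal between controls, both still called.

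Directions turned only in differences that were not called. Icam2 in the heart was -0.014 by standardized fold change. On the second Selp probe, on which 2 of 3 hepatic controls were not well above background, the liver values were 1.15 and 0.75 (0.25 and -0.16 without hepatic control 1), that between days -0.41 and the organ difference -1.61, which on the first was -0.083 under normexp and -0.00029 with slide as a random block. Between days Itga4 was -0.75 and -0.71 on its dimmer probes and -0.032 with the slide block, and Itgal was -0.12 under normexp. With single arrays left out the ranges that crossed 0 were, between days, -0.031 to 0.72 (Icam1), -0.42 to 0.054 (Icam2), -0.029 to 0.11 (Itgal) and -0.058 to 0.11 (Itga4), in the organ difference -0.13 to 0.31 (Selp), -0.53 to 0.29 (Itgb2) and -0.38 to 0.081 (Itgb7), and between controls -0.22 to 0.21 (Itgb7). The causes were not tested. Hepatic controls were the dimmest arrays, which limits Sele and the dimmer probes of Vcam1, Selp and Itga4.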
